A study of Homo sapiens with 2 samples.

Results

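Genes of homologous recombination, the Fanconi anaemia pathway, DNA damage checkpoint signalling and mismatch repair were examined for SOX9 binding in HT-29 cells. The set held 37 named genes out of 20162 protein-coding genes of the GENCODE annotation of hg19 and was given as a list of names. It comprised 19 genes of homologous recombination, 10 Fanconi genes, 4 checkpoint genes and 4 mismatch repair genes. A gene was counted as having a promoter peak when the summit of a SOX9 peak lay within 1 kb of any of its annotated transcription start sites (TSSs). The study asked where the transcription factor SOX9 sits in the genome of colorectal cancer cells. HT-29 is an established line from a human colorectal adenocarcinoma, cultured overnight and fixed with formaldehyde, and the labels name no treatment or genetic change. Chromatin was precipitated with an antibody to SOX9 for 1 library, and 1 input library came from chromatin of the same line without antibody. Both held 12320108 tags after the authors had brought them to equal size, and a tag is 1 uniquely aligned read. The culture medium is McCoy's 5A in the methods and DMEM in the sample labels. With 1 library per condition there is no replicate error. All shares and medians below are therefore descriptions, and the 95% intervals cover counting error only.

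Homologous recombination repairs broken chromosomes by copying from the sister chromatid. Nucleases first trim the DNA ends, the BRCA proteins then load a recombinase on the exposed strand, and helicases finally resolve the joined molecules. The Fanconi pathway removes crosslinks between strands with the help of the same recombination proteins, checkpoint kinases report the damage, and mismatch repair corrects replication errors and is lost in one class of colorectal cancers. Many promoters of such genes are rich in CpG, have no TATA box and start transcription in both directions. CCAAT, read as ATTGG on the other strand, is the core recognised by NF-Y, a factor of many cell cycle promoters, whereas SOX proteins recognise sequences of the kind ACAATG and ACAAAG.

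The strings next to the summits are shown here because CCAAT was found at 18 of the 33 promoter peaks of the repair genes. Each sequence has 30 bases from hg19, is given 5′ to 3′ on the strand of the gene, and carries CCAAT or its complement ATTGG in capitals. They are the copies nearest to the summit at the 3 homologous recombination, Fanconi and checkpoint genes with the most tags that have CCAAT, followed by those of BLM, BRIP1 and PMS1.
XRCC3, chr14:104181880-104181909, minus strand: attgagactttggATTGGttagttagtcag
FANCF, chr11:22647445-22647474, minus strand: acatgcatttcgaCCAATagcattgcagag
CHEK2, chr22:29137862-29137891, minus strand: tctgctgctcctcATTGGtccggcggcagg
BLM, chr15:91260544-91260573, plus strand: cccaggaagcagCCAATcggaataggcaag
BRIP1, chr17:59940990-59941019, minus strand: ttcggagacttccATTGGatgccgaagttc
PMS1, chr2:190649112-190649141, plus strand: cgctgccagcggATTGGctgcgagcagcgc
At these genes the middle of the string lay 4 bp downstream of the summit for XRCC3, 11 bp upstream for FANCF, 1 bp upstream for CHEK2, 8 bp upstream for BLM, 30 bp upstream for BRIP1 and 1 bp downstream for PMS1. Strings of other factors lay beside it or stood in its place. At PMS1 a second CCAAT overlapped an E2F string, GCGCCAA, the complement of TTGGCGC, which is in capitals in the next sequence. At BRCA2 and FANCD2 the capitals mark the complement of the ETS string CCGGAAG, 23 bp upstream and 6 bp downstream of the summit. At RAD54L they mark the E2F string TTCCCGC, 19 bp upstream of the summit.
PMS1, chr2:190649127-190649156, plus strand: ggctgcgagcaGCGCCAAtctcacgttgcc
BRCA2, chr13:32889546-32889575, plus strand: cccaggcctgaCTTCCGGgtggtgcgtgtg
FANCD2, chr3:10068041-10068070, plus strand: ccggccttccaCTTCCGGcgcggaagttgg
RAD54L, chr1:46713300-46713329, plus strand: gcgcagcactaTTCCCGCctcttccttggg
A match is a description of the letters and not evidence of a bound site.

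SOX9 peaks were found at the promoters of 33 of the 37 repair genes (89.2%), against 9035 of 20162 protein-coding genes (44.8%). All 10 Fanconi genes and all 4 mismatch repair genes had one, as did 16 of 19 homologous recombination genes (84.2%) and 3 of 4 checkpoint genes. The 4 genes without a promoter peak were XRCC2, RAD54B, WRN and TOPBP1. The repair genes also differed from all genes in base composition, and the part of this in the count was not tested. Of the 37 repair genes, 31 (83.8%) had a CpG-rich promoter, compared with 61.5% of all genes. A promoter was called CpG-rich when the stretch from 250 bp before to 50 bp after the TSS had a GC content of at least 55% and an observed over expected CpG of at least 0.6. Of the 12409 genes with such promoters, 60.5% had a promoter peak, a comparison chosen after seeing the data. Among the members whose promoter was not CpG-rich, BRCA1, RAD51B, NBN, FANCF and FANCM had a promoter peak and RAD54B had none.

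Once present, the peaks were close to those of other genes in median tags and fold enrichment, but less so in their highest signal. The promoter peaks of the 33 repair genes held a median of 63 tags (quartiles 43 and 77), against 59 tags (quartiles 41 and 86) for all genes with a promoter peak. The median fold enrichment over the local input, as MACS gives it, was 10.36 for the repair genes and 10.12 for all genes. Of the 33 members, 18 were above the median tag count of all genes, 4 were among the top 10% and 6 were in the lowest 25%. By pathway, the median was 63.5 tags for homologous recombination, 49.5 for the Fanconi genes, 68 for the checkpoint genes and 55.5 for mismatch repair. Within each pathway the tags spread far more widely than these medians, from 25 to 130 in homologous recombination and from 17 to 171 among the Fanconi genes. The pathways hold between 4 and 19 genes, and genes are not replicates, so no pathway was set against another by a test. In 28 of the 33 peaks the empirical false discovery rate was 0, and its highest value was 0.06%.

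**Figure D1:**
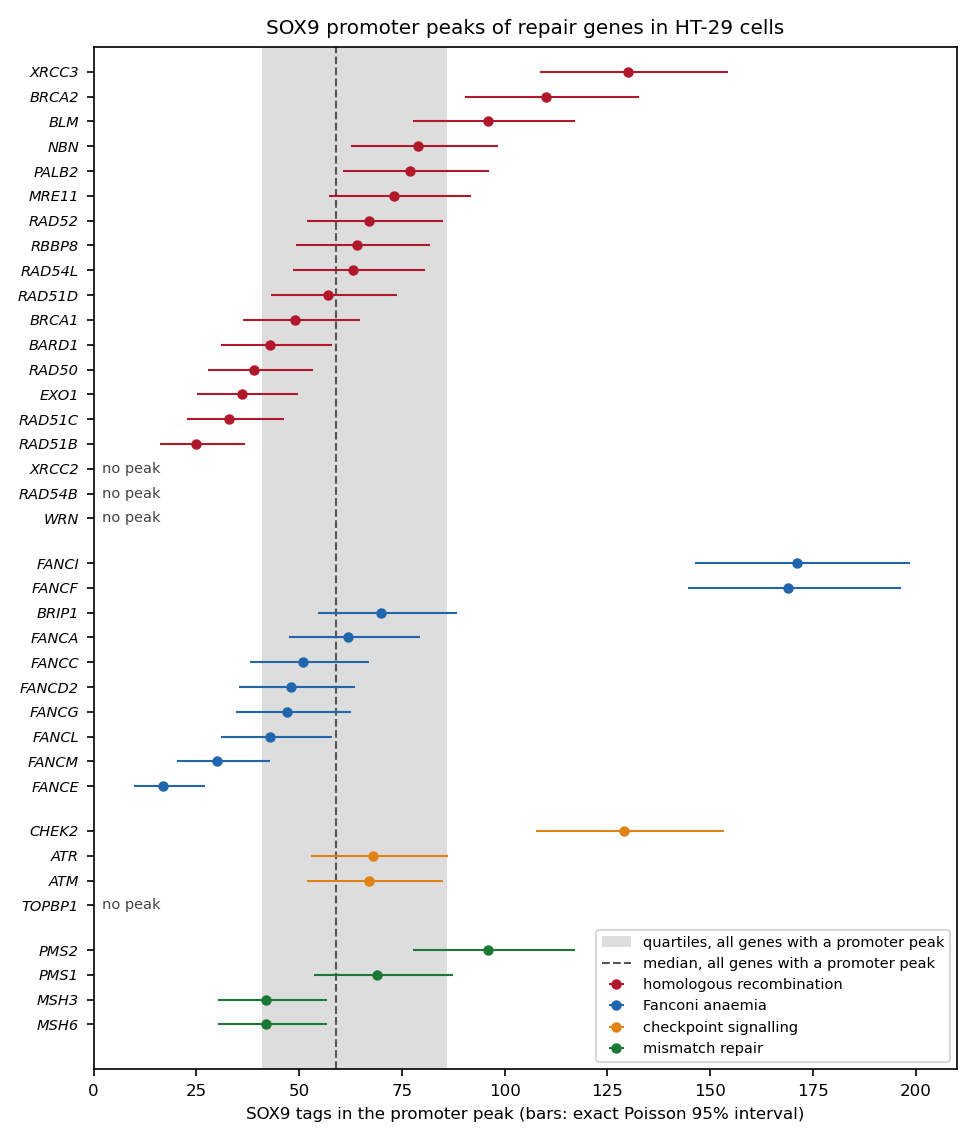
SOX9 tags in the promoter peak of each of the 37 repair genes, grouped by pathway, with exact Poisson 95% intervals for counting error; the grey band and dashed line are the quartiles and the median of all protein-coding genes with a promoter peak. FANCI (171 tags), FANCF (169), XRCC3 (130) and CHEK2 (129) have the most tags, and 4 genes have no peak.

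Among the BRCA proteins and mediators, all 5 genes carried a promoter peak. BRCA2, whose product loads the recombinase on DNA exposed at a break, had the most tags of the group, with 110 (90.4 to 132.6) on chromosome 13 from 32889025 to 32890596. Its fold enrichment was 7.37, and the highest signal in the interval was 35 extended tags per 32-nt bin for SOX9 and 11 for the input. Input tags were frequent over the whole region, and the mean input signal in the 1 Mb around the BRCA2 TSS was 2.75 times the autosomal median, the highest value of any member. HT-29 cells are aneuploid, and the part of DNA copy number in the tag count was not tested. PALB2, which links BRCA1 to BRCA2, had fewer tags than BRCA2 and a higher fold enrichment. It had 77 tags at a fold enrichment of 23.58, and the highest signal was 49 for SOX9 and 7 for the input. RAD52, which anneals complementary strands, had 67 tags (fold enrichment 9.38), and the summit lay 108 bp upstream of the TSS. BRCA1, the ubiquitin ligase that directs breaks into this pathway, had 49 tags (36.2 to 64.8) at a fold enrichment of 6.43 and a highest signal of 18 for SOX9 and 6 for the input. BARD1, the partner of BRCA1 in the ligase, had 43 tags (fold enrichment 6.49) and a summit 138 bp downstream of the nearest annotated TSS. A stretch of 414 bp around the BRCA1 TSS has a copy with 88.2% identity elsewhere on chromosome 17. The authors kept unique alignments only, and how reads were divided between these copies was not tested.

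Of the recombinase paralogs, which assemble into small complexes that steady the recombinase filament, XRCC3 stood far above the rest. Its peak, on chromosome 14 from 104181535 to 104182369, held 130 tags (108.6 to 154.4) at a fold enrichment of 34.16, the highest among the repair genes. The highest signal was 68 extended tags per bin for SOX9 and 4 for the input. It also had 4 copies of CCAAT within 100 bp of the summit, more than any other member. RAD51D had 57 tags, RAD51C had 33 and RAD51B had 25, and their fold enrichments were 8.07, 6.24 and 14.67. The Poisson intervals of RAD51C (22.7 to 46.3) and RAD51B (16.2 to 36.9) overlapped each other and lay wholly below that of XRCC3. XRCC2 had no promoter peak. RAD54L, a motor protein that acts on recombinase filaments, had 63 tags at a fold enrichment of 13.98, while its relative RAD54B had no promoter peak.

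The genes of DNA end resection all had promoter peaks of 36 to 79 tags. MRE11, RAD50 and NBN encode the complex that first binds and trims a broken end. They had 73, 39 and 79 tags, at fold enrichments of 8.40, 5.88 and 10.36. RBBP8, whose product CtIP activates that complex, had 64 tags at a fold enrichment of 21.6, but the peak did not lie at the canonical TSS. Its summit was 57 bp upstream of the start of other protein-coding transcripts, at −19264 bp from the canonical start. Within 500 bp of the canonical RBBP8 TSS there were 24.4 SOX9 tags and 9.2 input tags. EXO1, an exonuclease of resection and of mismatch repair, had 36 tags at a fold enrichment of 7.21. At NBN the summit lay 6 bp from one annotated TSS and 419 bp inside the gene relative to the canonical one. Of the RecQ helicases, BLM, which takes recombination intermediates apart, had 96 tags (77.8 to 117.2) at a fold enrichment of 12, whereas WRN had no promoter peak.

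By tag count, the Fanconi genes held both the largest and the smallest promoter peak of the set. FANCI and FANCD2 encode the clamp that closes around damaged DNA once it carries ubiquitin. The FANCI peak, on chromosome 15 from 89786677 to 89787464, had 171 tags (146.3 to 198.6) at a fold enrichment of 24.46, and the highest signal was 120 for SOX9 and 11 for the input. FANCD2 had 48 tags (35.4 to 63.6) at a fold enrichment of 13.13, well below the interval of FANCI. A copy of the FANCD2 start region with 90.2% identity over 529 bp lies on the same chromosome, and its part in the lower count was not tested. In the core complex, the ubiquitin ligase of the pathway, FANCF had 169 tags (144.5 to 196.5) on chromosome 11 from 22646430 to 22647932, at a fold enrichment of 17.67. The other subunits had far fewer. FANCA had 62 tags, FANCC 51, FANCG 47 and FANCE 17, and FANCE had the fewest tags of all members with a promoter peak (9.90 to 27.2). FANCC had a second promoter peak at another annotated start, also with 51 tags, at a fold enrichment of 12.05. FANCL, the ligase subunit itself, had 43 tags, but only near the starts of internal transcripts that retain an intron, 36839 bp inside the gene. At the canonical FANCL TSS, 25.4 SOX9 tags within 500 bp stood against 17.4 input tags.

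FANCM, which anchors the core complex to DNA, had 30 tags (20.2 to 42.8) at a fold enrichment of 11.3. A much larger peak lay beside it. With 119 tags (98.6 to 142.4) at a fold enrichment of 50.19, that peak had its summit at −1519 bp from the FANCM TSS and 70 bp from a start of FKBP3, which encodes a prolyl isomerase. It was not counted for FANCM, since it lies beyond 1 kb. BRIP1, a helicase of this pathway that binds BRCA1, had 70 tags at a fold enrichment of 25.97, and the highest signal was 43 for SOX9 and 3 for the input.

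Among the checkpoint genes, CHEK2, the effector kinase downstream of ATM, had 129 tags (107.7 to 153.3) on chromosome 22 from 29137275 to 29138841, at a fold enrichment of 15.91. ATM and ATR encode the kinases that report broken ends and exposed single strands. They had nearly equal tag counts, 67 and 68, but fold enrichments of 5.35 and 13.45. At ATM the highest signal in the interval was 22 for SOX9 and 11 for the input, whereas at ATR it was 32 for SOX9 and 7 for the input. The ATM value was the lowest fold enrichment among the members with a promoter peak. TOPBP1, the activator of ATR, had no promoter peak.

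All 4 mismatch repair genes had promoter peaks. PMS2, the nuclease subunit of the main MutL complex, had 96 tags (77.8 to 117.2) at a fold enrichment of 7.42. Its start region has 5 copies elsewhere on chromosome 7, with 87.8% to 89.6% identity over as much as 1017 bp, and its tag count rests on the reads that could be placed uniquely. PMS1, a related subunit with a lesser role in this pathway, had 69 tags at a fold enrichment of 7.91. MSH3 and MSH6, which recognise loops and mispaired bases in separate complexes with the same partner, had 42 tags each, at fold enrichments of 12.34 and 15.78. These 2 had the lowest input signals of the 4, with a highest value of 3 extended tags per bin, against 10 at both PMS2 and PMS1.

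At the starts of the 4 genes without a promoter peak, SOX9 tags exceeded input tags 1.50 to 3.24 times, against a median ratio of 3.30 over the 37 members. A tag extended to 150 bp falls in 5 bins, so the bins within 500 bp of the canonical TSS were summed and divided by 5 to give tags. XRCC2 had 63.0 SOX9 tags and 27.4 input tags, a ratio of 2.30 (1.47 to 3.81). TOPBP1 had 30.6 SOX9 tags and 14.0 input tags (2.19, 1.14 to 4.51). At RAD54B there were 39.4 SOX9 tags and 26.2 input tags (1.50, 0.890 to 2.57). WRN had 16.2 SOX9 tags and 5.0 input tags, a ratio of 3.24 with a wide interval (1.12 to 11.2). The region of WRN had the lowest input of any member, 0.403 times the autosomal median over 1 Mb. The interval of RAD54B included 1, and those of the other 3 did not. XRCC2 had more SOX9 tags within 500 bp of its TSS than 17 members with a promoter peak, and 4 of the members with a promoter peak had a lower ratio than XRCC2. At this depth the lack of a call does not show that SOX9 was absent. The nearest summits were 83615 bp away for XRCC2, 78440 bp for RAD54B, 501553 bp for WRN and 34202 bp for TOPBP1.

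**Figure D2:**
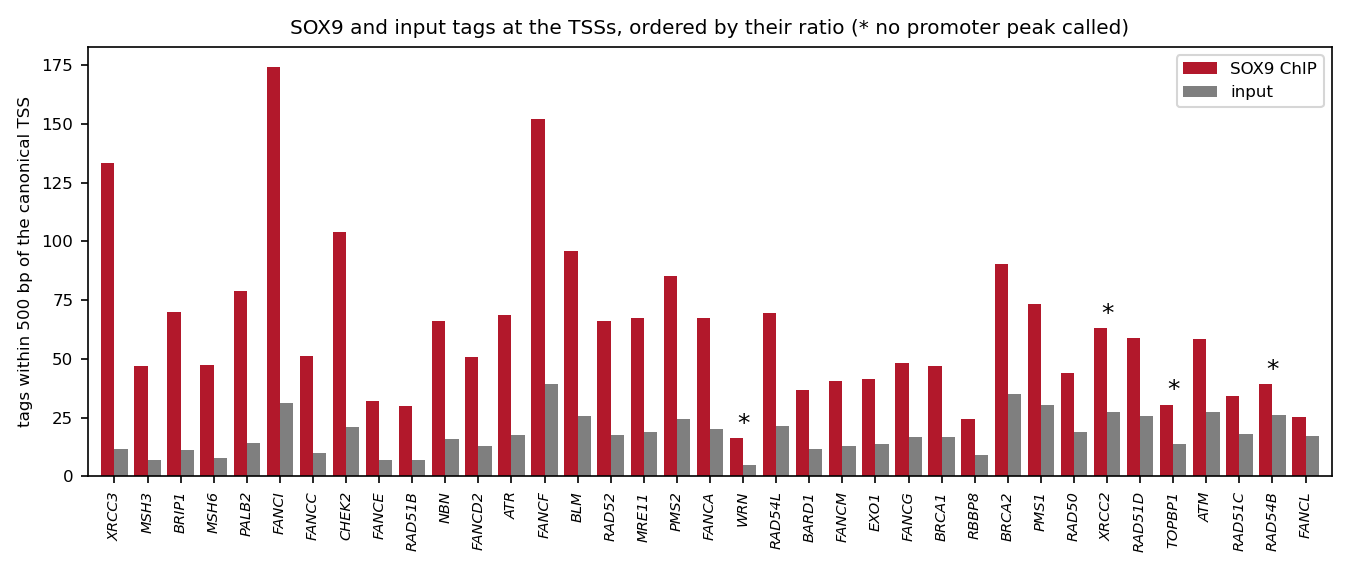
SOX9 tags (red) and input tags (grey) within 500 bp of the canonical TSS of the 37 repair genes, ordered by their ratio from the highest on the left; an asterisk marks a gene without a promoter peak. The ratio is 11.3 at XRCC3 and 1.46 at FANCL, and the SOX9 bar is the taller one at every gene.

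Measured at the canonical TSS with or without a peak, SOX9 exceeded the input at every repair gene. This is not particular to them, since the median over all protein-coding genes, given below, was also above the input. XRCC3 had 133.2 SOX9 tags and 11.8 input tags, a ratio of 11.3 (6.14 to 22). MSH3 (6.5), BRIP1 (6.23), MSH6 (5.95), PALB2 (5.55) and FANCI (5.54) followed. The lowest ratios were 1.46 at FANCL and 1.50 at RAD54B, and these were the 2 of 37 whose interval reached down to 1. The median log2 ratio, with 1 added to both mean signals, was 1.45 for the repair genes and 0.81 for all protein-coding genes, and 34 of the 37 members were above the median of all genes. For CpG-rich genes the median was 1.17. By pathway it was 1.74 for mismatch repair, 1.52 for the Fanconi genes, 1.29 for the checkpoint genes and 1.22 for homologous recombination. The order of the pathways by this ratio differed from that by peak tags. Within 500 bp of the TSS, the mismatch repair genes had medians of 60.5 SOX9 tags and 16.2 input tags, and the homologous recombination genes had 59 SOX9 tags and 17.8 input tags.

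The position of the signal was narrow and slightly upstream. Averaged over the 37 genes, the SOX9 signal was highest 96 bp upstream of the canonical TSS, at 25.32 extended tags per bin, where the input was 4.324. Between 1504 and 1056 bp upstream the means were 1.627 for SOX9 and 0.944 for the input. Over all protein-coding genes the SOX9 signal reached 10.65 at 64 bp upstream, with an input of 2.165. Both means include genes without a promoter peak, and 89.2% of the repair genes had one, against 44.8% of all genes. Summits of the promoter peaks lay at a median of −51 bp from the nearest TSS (quartiles −66 and −11 bp), and 28 of 33 were upstream (84.8%), compared with −49 bp and 73.8% for all genes with a promoter peak. All but RAD50 were within 150 bp of an annotated start, and RAD50 was at 165 bp. Over all genes with a promoter peak, the quartiles of the distance to the nearest TSS were −119 and 1 bp. The nearest of all annotated starts was used, and at RBBP8 and FANCL it lay far from the canonical one.

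**Figure D3:**
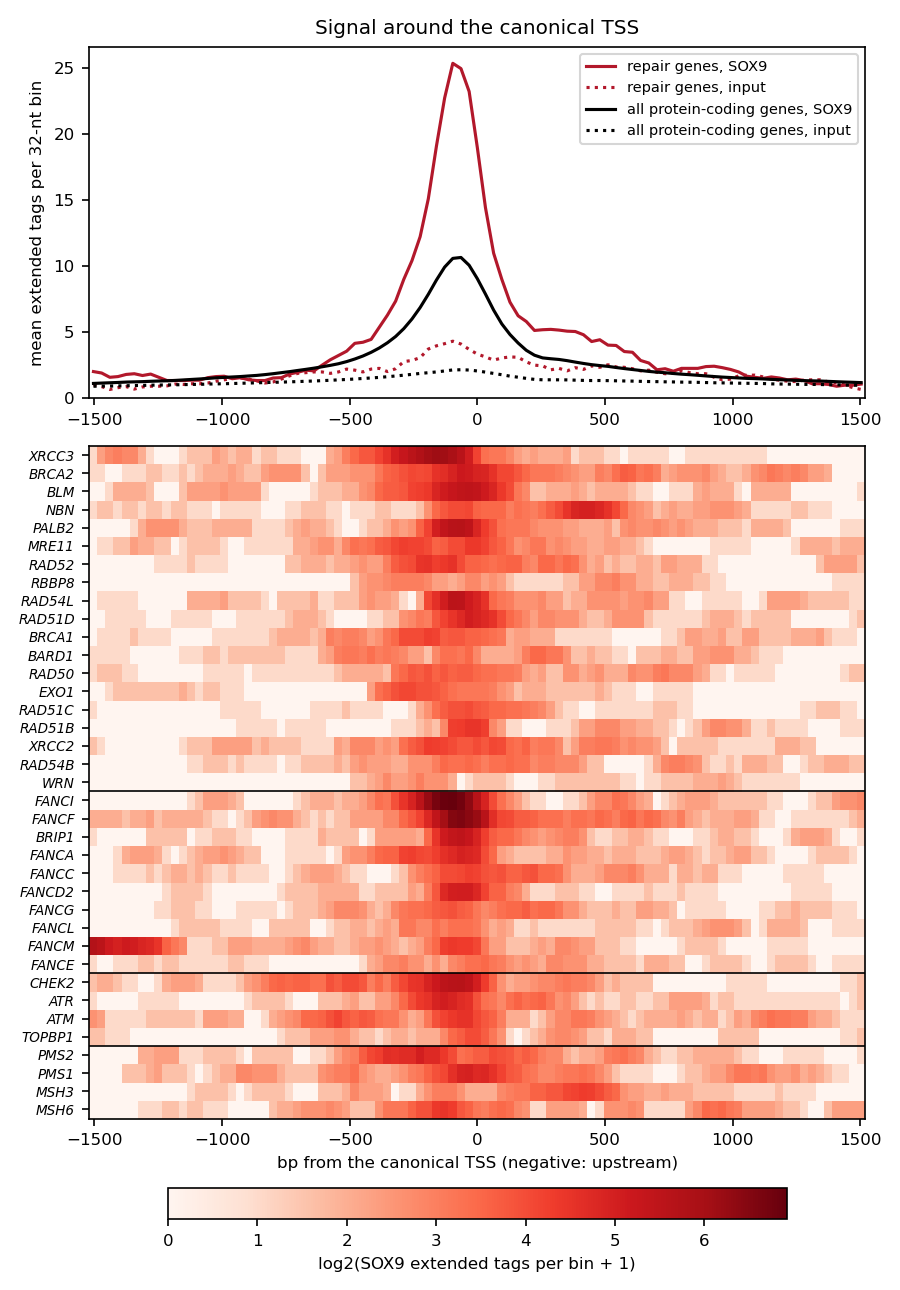
Upper panel, mean SOX9 (solid) and input (dotted) signal in extended tags per 32-nt bin within 1504 bp of the canonical TSS, for the repair genes (red) and all protein-coding genes (black); lower panel, log2 of the SOX9 signal plus 1 for each repair gene, with lines between the pathways. The mean over genes with or without a promoter peak reaches 25.32 for the repair genes and 10.65 for all genes. The dark stretch far upstream of FANCM is the peak of 119 tags near a start of FKBP3.

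More of the repair genes than of all genes faced another gene across the promoter. Another gene started on the opposite strand within 1 kb upstream at 20 of the 37 (54.1%), against 24.3% of protein-coding genes, and 13 of these partners were coding (35.1% against 12.5%). Over all genes, those with such a divergent start had a promoter peak in 68.1% of cases and those without in 37.3%. For CpG-rich genes with a divergent start the share was 71.7%, with a median of 65 tags in the peak. Their median log2 ratio at the TSS was 1.3, a comparison chosen after seeing the data. Among the repair genes the counts were 18 of 20 with and 15 of 17 without a divergent start. At 19 of the 33 promoter peaks the summit was within 1 kb of the start of another gene on either strand. Such a peak cannot be assigned to one of the genes from these data. No share over all promoter peaks was taken for this count. The summit was nearer to the neighbour in 4 cases. At BRCA1 it lay 2 bp from a start of the noncoding RNA gene NBR2 and 66 bp from BRCA1. At PMS2 it lay 1 bp from a start of AIMP2, a scaffold gene of the tRNA synthetase complex, and 141 bp from PMS2. At PMS1 the distances were 35 bp to ORMDL1 and 51 bp to PMS1, and at RAD50 they were 73 bp to IL5 and 165 bp to RAD50. At CHEK2 and XRCC3, which had many tags, the summit was closer to the repair gene, 49 against 152 bp for HSCB and 57 against 169 bp for ZFYVE21. FANCI had no annotated start of another gene within 1 kb of its summit.

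When both strands were read up to 100 bp from each summit, CCAAT and the E2F strings had larger shares at the repair genes than at all promoter peaks, and the SOX strings and the GC box had smaller ones. CCAAT was found at 18 of 33 repair peaks (54.5%) and at 30.7% of 8655 promoter peaks. The E2F strings TTCCCGC or TTGGCGC were found at 11 (33.3%) against 11.0%, and the ETS string CCGGAAG at 8 (24.2%) against 16%. The SOX strings ACAATG or ACAAAG were found at 1 repair peak (3.03%), that of FANCL far inside the gene, against 11.0%. The GC box GGGCGG was found at 14 (42.4%) against 61.3%. The string TTTGAA, known as CHR, and the NRF1 motif were found at 3 and 2 repair peaks (9.09% and 6.06%), against 5.36% and 5.71%. The E2F strings also had the larger share in the promoter sequence taken without reference to the summit. Between 250 bp before and 50 bp after the canonical TSS, an E2F string was found in 19 of 37 repair genes (51.4%) and 12.1% of all genes. For CCAAT the shares in that window were 45.9% and 35.9%. In that window, over genes with or without a peak, the GC box was found in 70.3% of the repair genes and 60.9% of all genes, and the SOX strings in 5.41% and 18.5%. These shares differ from those around the summits in both the window and the genes counted.

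**Figure D4:**
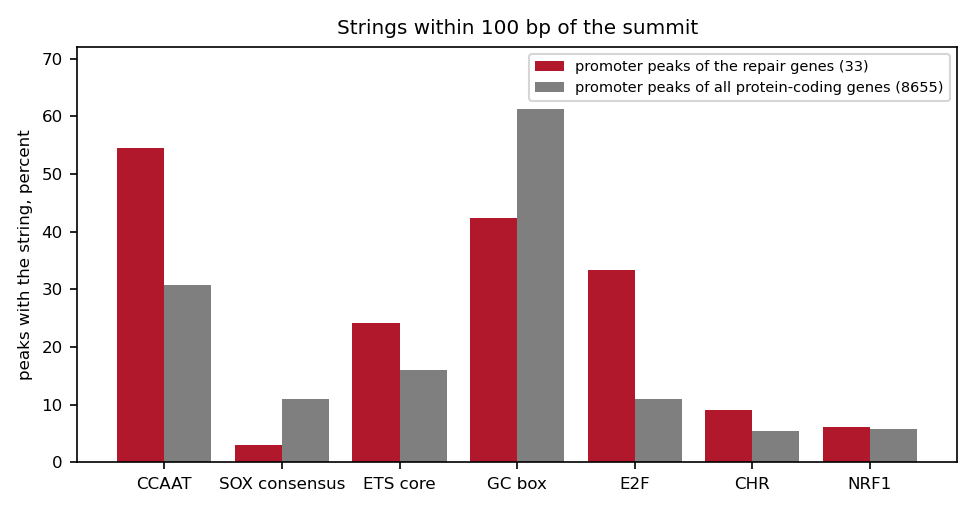
Percent of promoter peaks that hold each string within 100 bp of the summit on either strand, for the 33 repair genes with a promoter peak (red) and for the 8655 promoter peaks of all protein-coding genes (grey). The shares for the repair genes are 54.5% for CCAAT, 33.3% for E2F, 42.4% for the GC box and 3.03% for the SOX consensus.

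Where CCAAT was present, the number of copies was like that of other promoter peaks. More than 1 copy was found at 8 of the 18 members with CCAAT (44.4%), against 44.6% of the 2653 promoter peaks with it, a comparison added after seeing the data. Of the 29 copies at the members, 22 were within 50 bp of the summit (75.9%, median distance 33 bp), against 65.4% of the copies at all promoter peaks (median distance 36 bp). XRCC3 had 4 copies, BRIP1 had 3, and RAD54L, BLM, FANCF, CHEK2, PMS2 and PMS1 had 2 each. The peaks with CCAAT had a median of 66 tags and those without 57 among the repair genes, and over all promoter peaks the medians were 64 with CCAAT and 52 without. Median fold enrichment was 12.67 with and 8.07 without CCAAT at the repair genes, and it was not taken over all promoter peaks. Peaks with many tags also occurred without it, as FANCI (171 tags) and BRCA2 (110 tags) had no CCAAT within 100 bp of their summits. FANCI had the GC box as its only string, and BRCA2 had the ETS string shown above. An E2F string and CCAAT occurred together at RAD54L, BLM, FANCA, FANCC, BRIP1 and PMS1. None of CCAAT, E2F and ETS strings was found at BARD1, RAD52, NBN, RBBP8, EXO1, FANCI and FANCL. These combinations were not counted over all promoter peaks. For the E2F strings the medians were 57 tags with and 67 without them in the repair genes, and 58 with and 55 without them over all promoter peaks.

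Nearly all SOX9 peaks inside the repair genes but away from their promoters were in RAD51B. Over the 37 genes there were 15 such peaks, 0.363 per 100 kb of gene, against 0.358 over all protein-coding genes. RAD51B spans 910.4 kb on chromosome 14, and 13 SOX9 peaks had their summits inside it more than 1 kb from its starts, all in introns. In the other 36 members together, over 3218 kb, there were 2, a peak of 31 tags in an intron of BLM and one of 17 tags on an exon of PMS2. This is 1.43 peaks per 100 kb in RAD51B and 0.0621 in the rest, a split made after seeing the data. Set against long genes alone, a comparison chosen after seeing the data, the 324 protein-coding genes of at least 500 kb had a median of 1 such peak and 0.173 per 100 kb, and 1 of them had more than RAD51B. The 13 peaks had a median of 34 tags at a fold enrichment of 13.13, close to the 37 tags and 10.71 of all 9192 peaks that lie more than 1 kb from the starts of protein-coding genes. The promoter peak of RAD51B, with 25 tags, had fewer tags than 9 of them. The first of the 13 lay 345 kb into the gene, and 6 lay beyond the end of the canonical transcript of 658.3 kb, within longer annotated transcripts.

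**Figure D5:**
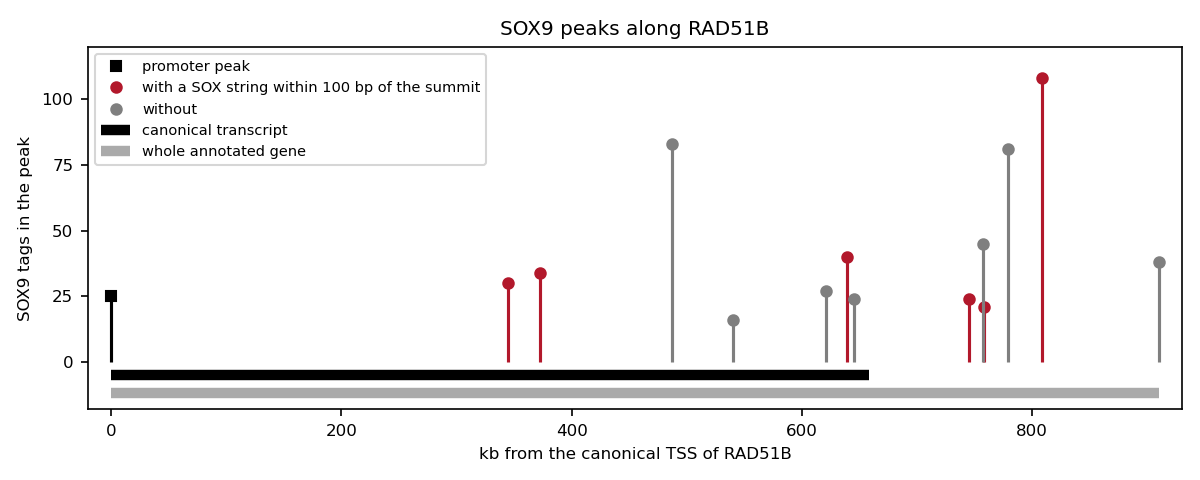
SOX9 tags in each peak along RAD51B against the distance of its summit from the canonical TSS in kb; the square is the promoter peak, red circles are peaks with a SOX string within 100 bp of the summit and grey circles are peaks without. The promoter peak has 25 tags, the 3 tallest peaks have 83, 81 and 108, and the bars under the axis show the canonical transcript and the whole gene.

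The peak of most tags inside RAD51B had 108 (88.6 to 130.4) on chromosome 14 from 69094734 to 69096232, at a fold enrichment of 23.63. Its summit was 26 bp from the start of the unnamed noncoding RNA gene ENSG00000259038, so it can also be counted as a promoter peak of that gene. The next had 83 tags at 487 kb and 81 tags at 779 kb, with fold enrichments of 29.59 and 27.27, and no SOX string near the summit. SOX strings were present at 6 of the 13 peaks (46.2%), against 37.1% of the distal peaks as a whole, and CCAAT at 2 of the 13, against 22.5%. At the peak of 108 tags, copies of ACAAAG lay on opposite strands with their first bases 11 bp apart in the plus strand, the only peak of the 13 with more than 1 copy. These and the copy of the peak of 34 tags are given with the string in capitals, on the plus strand of hg19, which is also that of RAD51B.
RAD51B, chr14:69095175-69095204: ccgccctgctgcACAAAGgcctgctttgtt
RAD51B, chr14:69095186-69095215: cacaaaggcctgCTTTGTtctctcggctct
RAD51B, chr14:68658834-68658863: cctacaggccagACAAAGccaaggtcatgt
At the RAD51B promoter itself the string nearest to the summit was CCAAT, 4 bp upstream, in capitals as its complement.
RAD51B, chr14:68286439-68286468: tgccggcctctgATTGGatacagtagccag

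Other genes of the same pathways had promoter peaks about as often. Of 56 further genes, 47 had one (83.9%), at a median of 66 tags. Those with the most tags were ERCC1 (264), which encodes a subunit of a nuclease that cuts at crosslinks, the Fanconi core partner FAAP24 (219), and UIMC1 (192), a ubiquitin-binding partner of BRCA1. RMI1 (173), from the complex of BLM, the checkpoint scaffold MDC1 (129) and CENPX (128), a DNA-binding partner of FANCM, followed. The 9 without included ABRAXAS1, CLSPN, DNA2, ERCC4, FIGNL1 and MLH3. ERCC1 and ERCC4 encode the 2 subunits of the same nuclease. Within 500 bp of the TSS, ERCC1 had 114.2 SOX9 tags and 28.8 input tags, and ERCC4 had 43.2 SOX9 tags and 19 input tags. Genes of the remaining repair pathways had promoter peaks at 16 of 19 genes of nucleotide excision repair, 15 of 20 of base excision repair and 7 of 10 of end joining, with medians of 71, 60 and 76 tags. No test was made between these lists.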

How the data were processed

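SOX9 ChIP and input DNA of HT-29 cells gave 1 library each. The authors aligned 50-nt reads to hg19 with BWA, kept unique alignments without duplicates, and ran MACS 1.3.7.1 (cut-off p = 1e-07), per the submitters' notes and the methods. In the deposited peak table, tags are a count of ChIP reads, the score is −10 log10 of the MACS p, fold enrichment is a ratio to local input, and FDR is a percent. A second deposited file repeats these peaks. In the deposited maps, the signal per 32-nt bin counts tags after extension to 150 bp, unscaled because totals were equal. Summits (start + summit − 1) were placed on GENCODE release 44 for hg19, and of several promoter peaks the one with most tags was used. Ratio intervals are exact binomial, those of tags exact Poisson. Sequence copies were searched with BLAST 2.17.0 (at least 85% identity over 400 bp). All 37 members were named, and of 56 other genes the 6 with most tags and the first 6 without a promoter peak in alphabetical order. Members and lists were chosen with earlier results of these data known. Start sites, distances, score limits, windows and pseudocounts were varied. The CpG-rich and long-gene comparisons were added after seeing the data. The scripts, tested on simulated data, used pysam 0.24.0, pandas 2.3.3, SciPy 1.17.1, NumPy 2.4.6, matplotlib 3.10.9 and Python 3.11.15.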

Additional observations from a re-analysis of the deposited data

How the results depend on the processing

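Of 47 values recomputed under other settings, 38 stayed close to those reported and 9 moved. With a score of at least 100 on the scale of −10 log10 p, 64.9% of the repair genes (24 of 37) and 60.0% of the Fanconi genes (6 of 10) kept a promoter peak, against 35.9% of all genes. BRCA1, RAD51C, RAD51D, RAD50, FANCE, FANCG, FANCL, FANCM and ATM were lost. With the canonical TSS only and no score limit, RBBP8 and FANCL were lost, which left 83.8%, against 40.9% of all genes. The log2 ratio at the TSSs was 2.12 with the input averaged over 10 kb, against 1.28 for all genes. The share with a divergent start was 35.1% when only coding partners counted. The share with the GC box was 21.2% within 50 bp of the summit, against 39.5% of all promoter peaks. In the window at the TSS it was 70.3%, against 60.9% of all genes. For an E2F string the shares were 15.2% against 5.68% within 50 bp, and 51.4% against 12.1% in the window at the TSS. The share with CHR was 3.03% within 50 bp, against 2.3% of all promoter peaks. The score limit, the rule of coding partners and the window of 50 bp are each narrower than the main setting, so those shares could not rise. The causes of the other shifts were not tested. At this depth a peak of 17 tags, as at FANCE, has an interval of 9.90 to 27.2, and the 4 genes without a call cannot be called unbound. No paired analysis was possible because there is 1 library per condition.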
